A study of Mus musculus with 7 samples.

Results

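Chromatin accessibility was described around 8 mouse genes that encode TALE homeodomain cofactors: Pbx2, Pbx3 and Pbx4, Meis1, Meis2 and Meis3, and Pknox1 and Pknox2. Each gene was taken with the 50 kb before and the 50 kb after its body (GRCm38), and every deposited ATAC-seq peak in these windows was kept. The 8 genes are among 21000 protein-coding genes with an annotated start, and their windows held between 282 and 346 peaks per library out of between 187914 and 291287. ATAC-seq inserts sequencing adapters into open DNA, so that a peak marks a stretch where the transposase could enter.

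The 7 libraries came from the microdissected second heart field (SHF) region of embryos at embryonic day 9.5, dissociated and sorted by flow cytometry. The 2 GFP+ libraries held cells positive for the reporter of the Hoxb1-GFP line, which labels the posterior SHF, and the 2 GFP- libraries held the negative cells of that line. The 2 Tomato+ libraries held cells labelled in the Mef2c-Cre;Rosa-tdT line, in which the anterior heart field Cre marks the outflow tract, right ventricle and anterior SHF together with their descendants, and the 1 Tomato- library held its negative cells. The run name in the header of the Tomato+ replicate 6 peak list contains YFP, which goes against its labels; the labels were followed, and the comparisons with Tomato+ are also given without this library. The GFP reporter is on in cells that use Hoxb1 at the time, whereas the Tomato label also stays on in cells that used the Cre earlier, and a small group of cells carries both. Each library drew on several embryos of a line. Population and mouse line cannot be told apart in the comparison of GFP+ with Tomato+ cells, and each group has at most 2 libraries, so p-values measure only the spread between these libraries.

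TALE proteins carry an extra loop of amino acids between helices of the homeodomain. PBX proteins bind DNA together with HOX proteins, among them HOXB1, and sharpen the choice of site. MEIS and PKNOX (also called PREP) proteins join PBX in pairs or in triple complexes with HOX, and help bring PBX into the nucleus. In the mouse, loss of Pbx or Meis genes disturbs the outflow tract and the septation of the heart.

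The libraries had between 64306 and 77746 peaks with q at most 0.01 (−log10 q of at least 2), called "open" from here on, and between 52340120 and 93074895 tags as estimated from the peak caller's background. The Tomato- library was the deepest. Counting intervals cannot be given, since the lists hold peak summaries and no read counts per region. The label check was partial: at the promoter of Hoxb1, the gene whose reporter marks the GFP+ cells, fold enrichment was 3.73 and 2.88 in the GFP+ libraries against 2.44 and 3.54 in the Tomato+ libraries, so the groups overlapped. At Mef2c, whose enhancer drives the Cre, the promoter had a −log10 q of 61.59 (replicate 6) and 19.29 (replicate 8) in Tomato+. In the other libraries it was between 6.48 and 13.85. The local background there was 6.36 and 3.04 times the genome-wide level in Tomato+, and between 1.10 and 1.56 elsewhere. Fold enrichment at Mef2c overlapped, with 8.22 and 5.64 in Tomato+ and 7.10 and 5.86 in GFP+. Of 6 posterior markers, 5 and 5 had an open promoter in the GFP+ libraries and 3 and 5 in the Tomato+ libraries. In GFP- 3 and 5 of them were open, and in Tomato- 4. Of 5 anterior markers, 4 and 3 were open in GFP+, 3 and 3 in Tomato+, 4 and 3 in GFP- and 4 in Tomato-. The counts of both lists thus overlapped between sorted and negative cells. Over all protein-coding genes, between 60.8% and 63.6% of promoters were open in a library. Promoters of 4 blood markers were open at 0 or 1 gene in each GFP+, GFP- and Tomato+ library and at 2 in Tomato-, the globin gene Hbb-y among them. Of 5 neural markers, 4 and 4 were open in GFP+, 3 and 5 in Tomato+, and 5 in each negative library. A like promoter state is no measure of cell number, and the part of other cells in the values below was not tested.

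The promoters of the cofactor genes were open nearly throughout. A promoter was the stretch from 1000 bp before to 100 bp after an annotated start. At 7 of the 8 genes it was open in all 7 libraries, the exception being Pbx2, where 6 libraries passed. Over all protein-coding genes, 53.0% had a promoter open in all 7 libraries. Fold enrichment, the height of the peak over the local background, had a median per gene from 2.89 at Pbx2 to 8.28 at Pbx4, whereas the 11139 protein-coding promoters open in all 7 libraries had a median of 6.39, with quartiles of 5.04 and 8.14. So 5 of the 8 genes lay below the lower quartile. These were Pbx2, Meis1, Meis2, Meis3 and Pknox2.

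**Figure D1:**
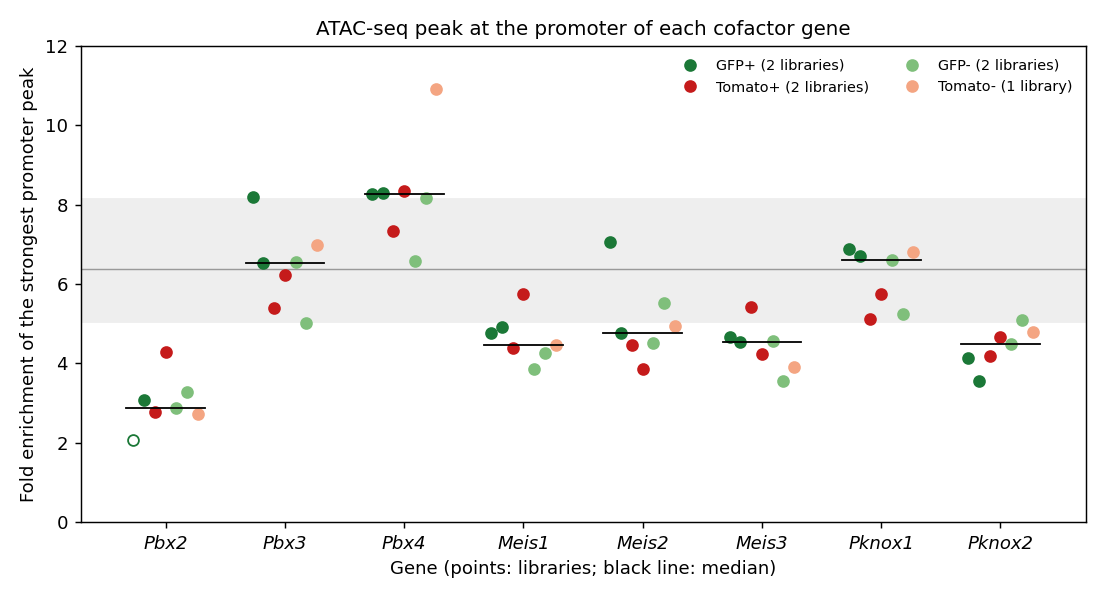
Fold enrichment (vertical axis, linear, no unit) of the strongest promoter peak at each of the 8 genes in each library. Points are libraries, coloured by group, black lines are medians over the 7 libraries, an open circle is a peak with q above 0.01, and the grey line and band give the median (6.39) and quartiles (5.04 and 8.14) of promoters open in all libraries; Pbx4 sits highest and Pbx2 lowest, and the groups overlap at most genes.

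Among the PBX genes, Pbx4 had the strongest promoter peak. Pbx4 is known mainly from the testis, and its promoter reached a fold enrichment of 8.28 and 8.30 in the GFP+ libraries, 7.33 and 8.35 in Tomato+, 6.57 and 8.17 in GFP-, and 10.91 in Tomato-. The Tomato- value was the highest and a GFP- value the lowest, while GFP+ and Tomato+ overlapped. Within each library this peak stood in the top 1.77% to 5.34% of all peaks. Pbx3, which is needed for the neurons that drive breathing at birth, had a broad promoter peak with a median length of 1325 bp. Its fold enrichment was 8.20 and 6.52 in GFP+, 5.39 and 6.23 in Tomato+, 6.56 and 5.03 in GFP-, and 6.98 in Tomato-. Both GFP+ libraries were above both Tomato+ libraries, but the GFP- values overlapped both groups.

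Pbx2, a widely used member whose loss alone is tolerated in the mouse, had the weakest promoter peak of the 8. The fold enrichment was 2.07 and 3.08 in GFP+, 2.77 and 4.29 in Tomato+, 2.89 and 3.27 in GFP-, and 2.72 in Tomato-. In GFP+ replicate 3 the peak had a −log10 q of 0.71 and stood at 98.8% of the list counted from the top, and in GFP+ replicate 4 it had 5.10 and stood at 30.1%. The local background there was between 2.8 and 3.57 times the genome-wide level. The 250 bases before the starts of Pbx2 and Pbx4, the weakest and the strongest promoters, are shown for their base composition (RefSeq, GRCm38.p6, 5′ to 3′ on the plus strand, which both genes use; chr17:34592009-34592258 and chr8:69832374-69832623).
Pbx2: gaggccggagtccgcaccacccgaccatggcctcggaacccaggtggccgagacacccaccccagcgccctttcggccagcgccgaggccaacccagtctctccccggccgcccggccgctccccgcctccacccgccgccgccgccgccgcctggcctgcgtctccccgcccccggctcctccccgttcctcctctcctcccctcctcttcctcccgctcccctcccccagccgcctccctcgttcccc
Pbx4: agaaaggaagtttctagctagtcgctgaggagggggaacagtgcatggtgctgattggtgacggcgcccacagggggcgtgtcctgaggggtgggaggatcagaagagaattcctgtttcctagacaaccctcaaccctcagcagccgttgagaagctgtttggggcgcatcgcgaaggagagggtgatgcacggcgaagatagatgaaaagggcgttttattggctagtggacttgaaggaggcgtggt
The Pbx2 stretch is 77.6% G or C and the Pbx4 stretch 55.6%, beside a median of 52.4% over 32851 mouse promoters of that table. Neither holds a match to TGATNNAT, the core bound by HOX and PBX together, to TGACAG, the core bound by MEIS and PKNOX, or to TGATTGAC, a PBX-MEIS core, on either strand. Over all promoters of that table, 7.68%, 15.9% and 0.691% held these motifs in the same 250 bases. Sequences of Meis1, Meis2 and Meis3 in that table also held none of the 3, and Pbx3, Pknox1 and Pknox2 have no entry there.

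The 3 MEIS promoters had medians of 4.46 (Meis1), 4.76 (Meis2) and 4.55 (Meis3) and overlapped in their ranges. Meis1, which is needed for blood stem cells and for heart septation, had a fold enrichment of 4.76 and 4.91 in GFP+, 4.39 and 5.74 in Tomato+, 3.87 and 4.27 in GFP-, and 4.46 in Tomato-. Meis3, best known from the hindbrain, had 4.66 and 4.55 in GFP+, 5.42 and 4.25 in Tomato+, 4.56 and 3.57 in GFP-, and 3.92 in Tomato-. At both genes the Tomato+ libraries lay on either side of the GFP+ libraries. Meis2, a factor of the neural crest and the outflow tract, had 7.06 and 4.76 in GFP+, 4.47 and 3.86 in Tomato+, 4.51 and 5.52 in GFP-, and 4.94 in Tomato-.

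The Meis2 value joins 2 separate peaks, because the gene has 3 annotated starts. In 5 libraries the strongest peak lay at chr2:116065563-116066083, upstream of the 2 inner starts, and in GFP+ replicate 4 and Tomato+ replicate 8 it lay at chr2:116066944-116067517, by the outermost start at position 116067444. At the inner region GFP+ replicate 3 had 7.06 and GFP+ replicate 4 had 4.43, and the Tomato+ libraries had 4.47 and 3.81. At the outer window GFP+ replicate 4 was the higher of the pair, with 4.05 and 4.76 in GFP+ and 4.07 and 3.86 in Tomato+. In fold enrichment the GFP+ libraries were thus on either side of a Tomato+ library at both regions. In that measure the separation seen for the gene as a whole rests on taking the stronger peak in each library. By position in each library's own list, both GFP+ libraries were closer to the top at both regions. The positions were 9541 and 23144 in GFP+ against 25737 and 33648 in Tomato+ at the inner region. At the outer region they were 29244 and 19567 against 32513 and 33130.

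The PKNOX genes differed between themselves. Pknox1, which encodes PREP1 and is widely used, had a promoter peak of 6.88 and 6.70 in GFP+, 5.13 and 5.76 in Tomato+, 6.60 and 5.25 in GFP-, and 6.81 in Tomato-. Its peak was broad, with a median length of 1173 bp. Pknox2, the more restricted paralog, had 4.15 and 3.57 in GFP+, 4.19 and 4.67 in Tomato+, 4.50 and 5.10 in GFP-, and 4.79 in Tomato-, over a median length of 1114 bp. At Pknox2 both GFP+ values were below the 5 others, the nearest pair being 4.15 and 4.19.

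The order of the 8 promoters by median fold enrichment was Pbx4, Pknox1, Pbx3, Meis2, Meis3, Pknox2, Meis1 and Pbx2. Neighbours in that order overlapped in their ranges throughout, from Pknox1 and Pbx3 (5.13 to 6.88 and 5.03 to 8.20) to Meis1 and Pbx2 (3.87 to 5.74 and 2.07 to 4.29). By Euclidean distance over the 7 libraries of normalized log2 fold enrichment, among 12725 protein-coding genes with a promoter peak in every library, Pbx3 was closest to Dhx8 (0.19) and Rybp (0.25), and Meis1 to Med20 and Gm20517 (both 0.16). Pbx4 was closest to Slc25a42 (0.23) and Nmd3 (0.24), Meis2 to Lrch2 (0.33) and Irf2bpl (0.35), and Meis3 to Syvn1 and Lrp3 (both 0.29). Pknox1 was closest to Mad1l1 (0.21) and Nudt1 (0.22), Pknox2 to Cnot6l and Rilpl2 (both 0.24), and Pbx2 to Tceal3 (0.37) and Gm2956 (0.44). No member was among the 2 nearest of another member.

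Other genes of the TALE family gave a like count. Of Tgif1, Tgif2, Irx1 to Irx6 and the PBX-binding factor Pbxip1, 7 of 9 promoters were open in all 7 libraries. Irx4, a factor of the ventricle, had a peak in 5 libraries and was open in GFP- replicate 1 (fold enrichment 3.18) and Tomato- (2.8). Its peaks in GFP+ were at 2.61 and 2.19, with −log10 q of 1.29 and 0.73. Pbxip1 was open in all libraries other than GFP- replicate 1, which had no peak, and its fold enrichment ran from 3.20 in Tomato+ replicate 8 to 5.71 in Tomato+ replicate 6.

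Away from their own promoters, the windows held 98 regions open in at least 2 libraries, where a region is made of the peaks of all libraries that share at least 1 bp. Of these, 30 were open in all 7 libraries, and 18 of the 98 lay at the promoter of another gene. The remaining 80 lay away from any promoter, and 14 of them were open in all 7 libraries (17.5%). Genome-wide the share was 21.5% of 57358 such regions. At promoters the windows had 24 of 27 open in all 7 (88.9%), beside 74.0% genome-wide. A further 179 regions were open in 1 library alone, from 21 in Tomato+ replicate 8 to 34 in Tomato-. The genome-wide share of such regions is not given, so the 179 have no background beside them. The Tomato- library had 118 open regions in these windows, 92 of them away from promoters. The other 6 libraries had between 86 and 94, with between 60 and 68 away from promoters. Over the genome, promoters included, Tomato- had 72753 open regions and the other 6 libraries between 59913 and 67782.

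**Figure D2:**
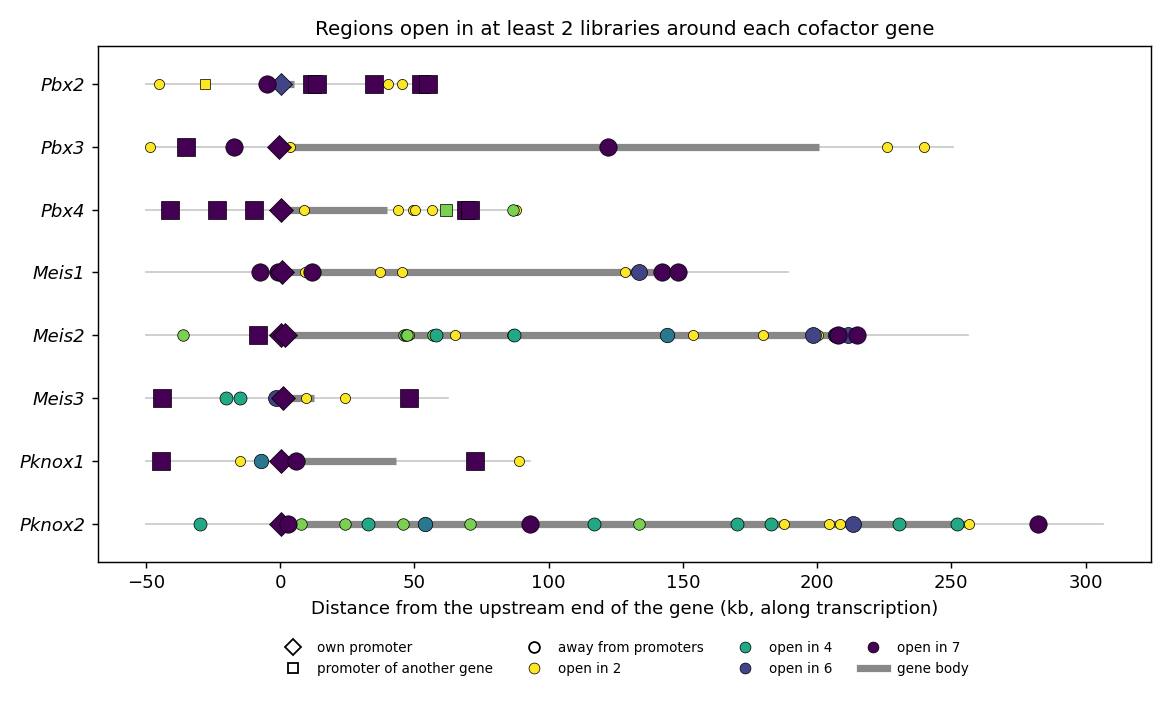
Regions open in at least 2 libraries in the window of each gene, by distance in kb from the upstream end of the gene along its direction of transcription. Colour and size give the number of libraries in which a region was open (2 to 7), the shape gives its class, and the thick grey bar is the gene body; at Pbx2 6 of the 10 regions beyond its own promoter sit at promoters of other genes, and those at Meis2 and Pknox2 are mostly inside the gene.

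The density of these regions differed between the genes. Meis2 had 6.86 regions away from promoters and open in at least 2 libraries per 100 kb of window, Pknox2 had 5.89, and Pbx3 had 2.33, the lowest of the 8. The median over windows of all 21000 protein-coding genes was 2.71, and 8.42% of them had the density of Meis2 or more. At Pknox2 18 of 21 and at Meis2 15 of 21 such regions lay in introns of the gene itself. At Pbx2, a short gene among close neighbours, 6 of 10 regions beyond its own promoter lay at promoters of other genes (Notch4, Rnf5, Agpat1, Ppt2, Fkbpl and Atf6b), and at Pbx4 6 of 13 did so. At Pbx2 6 distal regions and at Pbx4 5 were open in all 7 libraries. By median fold enrichment the leading 2 of these were promoters of Atf6b (6.01) and Rnf5 (5.12) at Pbx2, and of Ndufa13 (5.51) and Atp13a1 (5.30) at Pbx4. At Meis3 the 2 open in all libraries were promoters of Dhx34 (7.24) and Slc8a2 (4.6). The promoter of Mapkap1 in the Pbx3 window had values from 6.46 to 10.93, and that of Ndufv3 in the Pknox1 window from 6.48 to 12.94. Such regions are in the window by position alone.

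The Meis1 locus had 5 regions away from promoters open in all 7 libraries, the most of the 8 genes. One lay at chr11:19020291-19020883, 1524 bp before the start, with a fold enrichment of 5.55 and 5.79 in GFP+, 3.83 and 7.38 in Tomato+, 5.61 and 5.25 in GFP-, and 5.81 in Tomato-. Both extremes were Tomato+ libraries. Another lay beyond the far end of the gene at chr11:18876761-18878026, over 1266 bp, with values from 3.92 to 5.69, and the others, picked after their values were seen, were at chr11:18871239-18871954, at chr11:19026553-19027836, and in intron 6 at chr11:19007501-19008437. At 3 of these 5 regions the median fold enrichment was above that of the Meis1 promoter (4.46).

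At Meis2 the regions open in all libraries lay beyond the far end of the gene, whereas the introns held regions open in fewer. At chr2:115859234-115860031, 205106 bp from the start, fold enrichment was 4.0 and 5.27 in GFP+, 4.13 and 5.57 in Tomato+, 3.42 and 4.98 in GFP-, and 6.0 in Tomato-. Around it, between chr2:115852481-115853111 and chr2:115868937-115869535, lay 5 further regions open in at least 5 libraries, also picked after their values were seen. A region at chr2:116075454-116076385 was also open in all 7 libraries, but lies at the promoter of the transcript 2810405F15Rik.

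The Pknox loci each had an intronic region open in all 7 libraries. In intron 2 of Pknox2, chr9:37053858-37054905 had a fold enrichment of 4.10 and 5.77 in GFP+, 6.08 and 4.74 in Tomato+, 5.24 and 6.35 in GFP-, and 5.43 in Tomato-, so that the groups overlapped. Beyond the far end of Pknox2, in intron 6 of Fez1, chr9:36864845-36865030 had 3.92 and 4.75 in GFP+, 6.90 and 4.25 in Tomato+, 4.28 and 3.26 in GFP-, and 4.87 in Tomato-. In intron 1 of Pknox1, a narrow region of 254 bp at chr17:31570316-31570569 had 10.91 and 7.61 in GFP+, 8.02 and 10.91 in Tomato+, 9.36 and 7.13 in GFP-, and 8.08 in Tomato-. In fold enrichment it was above the Pknox1 promoter in every library. Its sequence is shown because no other intronic region of the 8 genes has a higher median fold enrichment (GRCm38.p6, plus strand).
Pknox1 intron 1: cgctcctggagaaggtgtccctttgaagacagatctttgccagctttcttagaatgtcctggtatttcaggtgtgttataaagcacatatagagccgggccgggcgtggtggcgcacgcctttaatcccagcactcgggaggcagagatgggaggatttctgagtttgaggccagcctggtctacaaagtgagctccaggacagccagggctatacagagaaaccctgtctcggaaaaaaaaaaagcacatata
Of these bases 63% are soft-masked as repeats in the reference, and none of the motifs named above is present. The part of reads from other copies of the repeat was not tested.

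A few more regions were picked after their values were seen, 1 or 2 at each of 4 genes. At Pbx2, the 1 region away from promoters open in all 7 libraries lay 4663 bp before the start, over coding exon 30 of Notch4 at chr17:34586823-34587904, with a fold enrichment of 4.14 and 3.86 in GFP+, 3.44 and 4.84 in Tomato+, 3.73 and 4.38 in GFP-, and 4.47 in Tomato-. In fold enrichment it was above the Pbx2 promoter in every library. At Meis3, a region 3033 bp before the start at chr7:16172154-16172552 was at 4.98 and 3.77 in GFP+, 3.7 in Tomato+ replicate 8, 3.36 and 4.70 in GFP-, and 3.92 in Tomato-, while Tomato+ replicate 6 had no peak. The Tomato+ libraries thus disagreed there.

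At Pknox1, a region 7055 bp before the start at chr17:31557495-31557846 reached 5.73 in GFP+ replicate 4, while GFP+ replicate 3 and GFP- replicate 1 had no peak and the other 4 libraries lay between 3.17 and 4.92. In intron 2 of Pknox2, chr9:37030129-37031064 reached 6.01 in Tomato+ replicate 6 and lay between 2.13 and 3.45 in the other 6 libraries, of which Tomato+ replicate 8 and both GFP- libraries did not pass the q threshold. Replicates of one group were far apart at both regions. Close to the Pknox2 start, in intron 1 at chr9:37144323-37144664, fold enrichment was 3.48 and 2.98 in GFP+, 2.66 and 2.6 in Tomato+, 3.34 and 3.47 in GFP-, and 2.78 in Tomato-. All 4 libraries of the Hoxb1-GFP line were above the 3 of the Mef2c-Cre line, the nearest pair being 2.98 and 2.78.

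Pbx3 had 2 regions away from promoters open in all 7 libraries. The one in intron 2, chr2:34249508-34250319, picked after its values were seen, had 5.12 and 4.25 in GFP+, 3.94 and 5.95 in Tomato+, 3.27 and 6.78 in GFP-, and 4.96 in Tomato-. The other lay 17280 bp before the start at chr2:34389250-34389450 and reached the highest fold enrichment of any region in the windows, with a median of 13.30. It is described further with the comparison of the populations.

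The comparison of GFP+ with Tomato+ cells asks where the posterior and the anterior SHF differ. In the windows, 56 regions were open in both libraries of at least one of these populations: 51 in both GFP+ libraries, 47 in both Tomato+ libraries and 42 in all 4. Only 1 region (1.79%) was open in both GFP+ libraries with no peak of any strength in either Tomato+ library, and 0 met the reverse. Genome-wide, 2.6% of 41695 such regions were seen in GFP+ and not in Tomato+, and 1.97% the reverse, so that the counts in the windows are near the background. Without Tomato+ replicate 6 the counts were 1 and 24, where the reverse then needs 1 Tomato+ library only. No genome-wide share is given for that setting, so the 24 cannot be read as an excess in the windows.

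The single region lay in intron 9 of Meis2, at chr2:115923294-115923718, 141094 bp from the nearest start. The −log10 q was 7.0 and 3.58 in the GFP+ libraries, with a fold enrichment of 5.28 and 3.75. Both Tomato+ libraries had no peak there, while the GFP- libraries had 3.72 and 4.31 and the Tomato- library 4.11. The region was therefore open in every library that was not Tomato+, and it does not set GFP+ cells apart from the negative cells of the 2 lines. With absence taken as no peak with q at most 0.01, in place of no peak, 4 regions passed in both GFP+ libraries while the Tomato+ libraries did not pass, and with the open call itself made at q at most 0.0001 the count was 0. The reverse count was 0 under either rule. No genome-wide share is given under the looser rule, so the 4 have no background beside them.

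The other 3 of those 4 regions, named after their values were seen, were chr9:37092992-37093599 and chr9:37139460-37139936 in intron 1 of Pknox2 and chr2:115887702-115887985 in intron 10 of Meis2. The first was also open in both GFP- libraries and in Tomato-, and its values are given below. The second had a −log10 q of 4.88 and 2.66 in GFP+, 1.61 and 1.28 in Tomato+, 1.30 in GFP- replicate 2 and 8.68 in Tomato-, with no peak in GFP- replicate 1. Its fold enrichment was 3.97 and 3.03 in GFP+, 2.72 and 2.61 in Tomato+, 2.47 in GFP- replicate 2 and 4.25 in Tomato-, so that the Tomato- library was the highest. The third was open in the GFP+ libraries and in no other, but only just: the −log10 q was 2.02 and 2.87 in GFP+, 0.38 in Tomato+ replicate 8 and 1.67 in Tomato-, with no peak in the remaining libraries. The fold enrichment was 3.31 and 3.45 in GFP+, 2.18 in Tomato+ replicate 8 and 2.79 in Tomato-. The sequences of both Meis2 regions are given since the first had no Tomato+ peak and the second was open in GFP+ libraries only, with matches to the motifs of HOX, PBX, MEIS and PKNOX in capitals (GRCm38.p6, plus strand; the first is the 300 bases around the summit, chr2:115923375-115923674, and the second the whole region).
Meis2 intron 9: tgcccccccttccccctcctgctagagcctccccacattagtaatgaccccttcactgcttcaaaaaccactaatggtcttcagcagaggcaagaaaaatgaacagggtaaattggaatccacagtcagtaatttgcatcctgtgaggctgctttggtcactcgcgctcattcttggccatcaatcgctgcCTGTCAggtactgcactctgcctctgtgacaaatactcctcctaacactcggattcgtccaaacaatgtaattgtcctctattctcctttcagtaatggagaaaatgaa
Meis2 intron 10: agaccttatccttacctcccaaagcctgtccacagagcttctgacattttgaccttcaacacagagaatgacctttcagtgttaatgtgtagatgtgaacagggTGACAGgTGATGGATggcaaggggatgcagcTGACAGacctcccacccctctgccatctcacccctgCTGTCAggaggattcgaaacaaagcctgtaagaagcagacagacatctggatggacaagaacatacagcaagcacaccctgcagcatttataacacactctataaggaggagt
The first holds 1 match to TGACAG, read on the minus strand. The second holds 1 match to TGATNNAT and 3 to TGACAG, and the first TGACAG stands 1 base before the TGATNNAT match. Soft-masked repeats make up 12.7% of the first and 0% of the second.

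Over all 80 regions of the windows away from promoters, the 300 bases around the summit held TGATNNAT in 8 (10%) and TGACAG in 19 (23.8%), on either strand. Among all 57358 such regions 10.9% and 19.3% did. TGATTGAC was found in 0 of the 80 and in 0.57% of all. At promoters, 0 of 27 held TGATNNAT, beside 2.58% of 15265, and 2 (7.41%) held TGACAG, beside 14.8%. The region at the outer start of Meis2 held the 1 match to TGATTGAC (3.7%, beside 0.74%). The consensus of CTCF, an insulator protein, was in 2 of the 80 (2.5%) and in 3.46% of all. A match describes the letters only. Away from promoters the shares in the windows lie near those of all such regions, and at promoters they rest on at most 2 of 27 regions.

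In levels, no region of the windows passed the test. Fold enrichment was put on a log2 scale, quantile-normalized and tested with limma over 34355 regions that had a peak in all 7 libraries and were open in at least 2, with Benjamini-Hochberg adjustment. Of the 51 such regions in the windows, 0 were higher and 0 lower in GFP+ than in Tomato+ at an adjusted p of at most 0.05, and 1 was higher and 1 lower at an unadjusted p below 0.05. Both counts of adjusted calls were also 0 without Tomato+ replicate 6. Over the genome, 2 were higher (0.00582%) and 1 lower (0.00291%), and 1488 and 1679 at the unadjusted level. The median log2 difference of the 51 was 0.08, beside 0.01 for all regions, and the median standard error was 0.27.

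**Figure D3:**
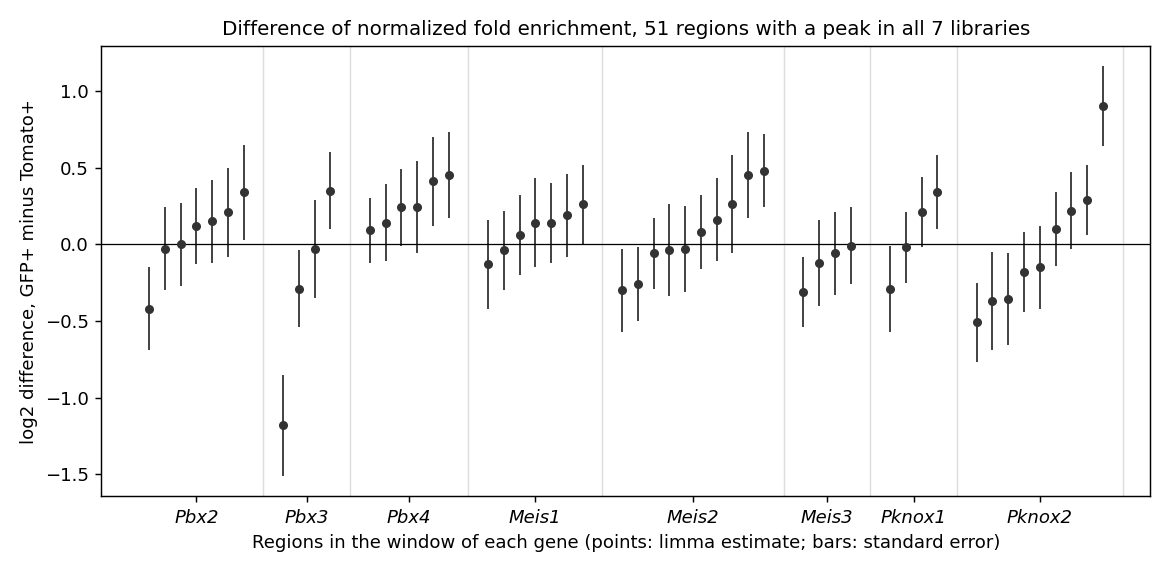
The limma estimate of the log2 difference in normalized fold enrichment, GFP+ minus Tomato+ (vertical axis), for the 51 regions with a peak in all 7 libraries, grouped by gene. Bars are standard errors; the region upstream of Pbx3 (-1.18) and a region in intron 1 of Pknox2 (0.90) lie farthest from 0, and neither passed the adjusted threshold.

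The region farthest from 0 was chr2:34389250-34389450, upstream of Pbx3. Its fold enrichment was 3.61 and 9.26 in GFP+, 9.20 and 18.57 in Tomato+, 15.61 and 13.30 in GFP-, and 17.20 in Tomato-. GFP+ replicate 3 stood far below the rest, and GFP+ replicate 4 was level with Tomato+ replicate 6, so the groups overlapped. The log2 difference was -1.18 with a standard error of 0.33 (limma, adjusted p = 0.274). It was -0.48 without GFP+ replicate 3, -1.89 without GFP+ replicate 4, -1.58 without Tomato+ replicate 6 and -0.77 without Tomato+ replicate 8. The whole sequence is printed, since no other region of the windows reached a higher fold enrichment (GRCm38.p6, plus strand).
Pbx3 upstream: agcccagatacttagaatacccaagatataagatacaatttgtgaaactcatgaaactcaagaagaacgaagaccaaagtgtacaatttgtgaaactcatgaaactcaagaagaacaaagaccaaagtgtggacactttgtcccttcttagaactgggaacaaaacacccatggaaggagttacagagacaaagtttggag
All of it is soft-masked (100%), and of the 80 regions of the windows away from promoters it is the 1 whose summit window is fully masked, whereas 16.7% of such windows in the genome are. It holds none of the motifs searched. The methods name no limit on mapping quality, and the part of reads from other copies was not tested.

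The second region by p, in intron 1 of Pknox2 at chr9:37092992-37093599, lay 54010 bp from the start. Its fold enrichment was 4.72 and 5.15 in GFP+, 2.48 and 2.91 in Tomato+, 5.02 and 5.92 in GFP-, and 2.81 in Tomato-. All 4 libraries of the Hoxb1-GFP line were above all 3 libraries of the Mef2c-Cre line, whether sorted as positive or negative. The log2 difference between GFP+ and Tomato+ was 0.90 with a standard error of 0.26 (limma, adjusted p = 0.292), and it stayed between 0.77 (without Tomato+ replicate 6) and 1.07 (on depth-scaled pileup) over the alternatives. Line and population cannot be told apart in that contrast, and GFP+ did not exceed GFP- here. The 300 bases around its summit are shown as no repeat covers them (0% soft-masked; GRCm38.p6, plus strand, chr9:37093162-37093461), with the 1 match to TGATNNAT, read on the minus strand, in capitals.
Pknox2 intron 1: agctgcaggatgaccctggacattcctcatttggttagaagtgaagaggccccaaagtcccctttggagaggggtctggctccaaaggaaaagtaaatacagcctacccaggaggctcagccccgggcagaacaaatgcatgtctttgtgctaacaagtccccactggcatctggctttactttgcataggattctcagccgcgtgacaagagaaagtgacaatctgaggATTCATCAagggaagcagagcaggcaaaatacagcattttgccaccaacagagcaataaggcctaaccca

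The third region, chr2:116020315-116020995 in intron 8 of Meis2, was open in 3 libraries. Its fold enrichment was 3.66 and 4.72 in GFP+, 3.14 and 2.93 in Tomato+, 2.75 and 2.91 in GFP-, and 2.23 in Tomato-. Both GFP+ libraries were above the 5 others. The log2 difference was 0.48 with a standard error of 0.24 against Tomato+ (limma, adjusted p = 0.575) and 0.53 with a standard error of 0.24 against GFP- (limma, adjusted p = 0.777). Without GFP+ replicate 4 the differences were 0.29 and 0.34, without GFP+ replicate 3 they were 0.67 and 0.71, and without Tomato+ replicate 6 they were 0.52 and 0.54.

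**Figure D4:**
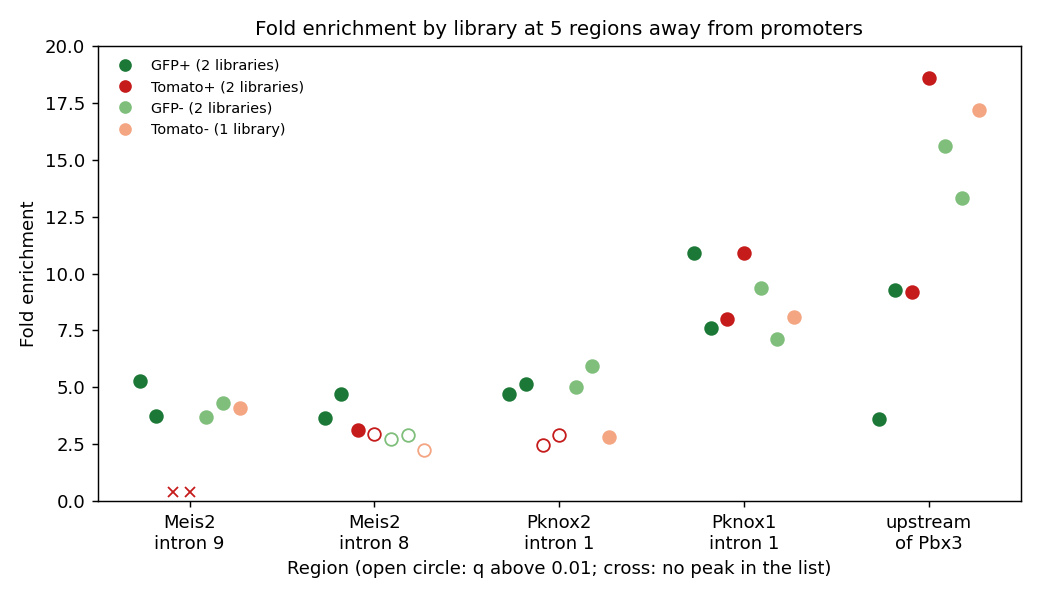
Fold enrichment (vertical axis, linear, no unit) in each library at 5 regions away from promoters. Points are libraries coloured by group, open circles are peaks with q above 0.01 and crosses mark libraries with no peak; both Tomato+ libraries lack the Meis2 intron 9 region, the 3 Mef2c-Cre line libraries sit lowest at Pknox2 intron 1, and the region upstream of Pbx3 runs from 3.61 to 18.57.

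Promoter ranks gave a one-sided count. Each promoter peak was placed by its position in the list of its own library, ordered by fold enrichment. At 4 of the 8 genes (Pbx3, Pbx4, Meis2 and Pknox1) it was closer to the top in both GFP+ than in both Tomato+ libraries, and at 0 genes the reverse held. Without Tomato+ replicate 6 these counts were 5 and 3, where the rule then needs 1 Tomato+ library only. Without Tomato+ replicate 8 they were 5 and 1, and without either GFP+ library 4 and 1. Leaving out a library can only keep or raise either count. Among 13123 protein-coding genes with a promoter peak in all 4 libraries, 26.7% were closer to the top in both GFP+ libraries and 10.1% in both Tomato+ libraries. With all 4 libraries the one-sidedness is thus shared with promoters at large. No such share is given without Tomato+ replicate 6, so the counts cannot show whether the one-sidedness depends on that library. For Pknox1 the positions were 10205 and 10408 in GFP+ against 18448 and 15166 in Tomato+. For Pbx3 they were 6763 and 10858 against 16328 and 13092. For Pbx4 they were close, 6652 and 6263 against 7692 and 7491, and for Meis2 9541 and 19567 against 25737 and 33130. With 2 libraries against 2, an exact permutation test cannot give a two-sided p below 0.333. In the fit none of these promoters passed. The log2 differences were 0.35 with a standard error of 0.25 at Pbx3 and 0.34 with 0.24 at Pknox1 (limma, adjusted p = 0.713 and 0.719). At Meis2 they were 0.45 with 0.28 at the inner region and 0.16 with 0.27 at the outer (limma, adjusted p = 0.67 and 0.908). At Pbx4 the difference was 0.09 with 0.21 (limma, adjusted p = 0.939).

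The comparison of GFP+ with GFP- cells stays within the Hoxb1-GFP line and shares the GFP+ libraries with the comparison above. Of the 51 regions, 0 were higher and 0 lower at an adjusted p of at most 0.05 (limma), and 1 was higher and 1 lower at an unadjusted p below 0.05. Over all regions 0 (0%) were called in either direction, with 965 higher and 1192 lower at the unadjusted level. The lower one was the region upstream of Pbx3, with a log2 difference of -1.33 and a standard error of 0.33 (limma, adjusted p = 0.543), which was -0.64 without GFP+ replicate 3 and -2.04 without GFP+ replicate 4. The higher one was the region in intron 8 of Meis2. The next by p lay at the promoter of Fkbpl in the Pbx2 window, with 0.45 and a standard error of 0.31 (limma, adjusted p = 0.883). The difference between the sorted and negative cells was also compared between the lines, with the 1 Tomato- library taken to vary like the others. Since that group has 1 library, only sizes are given. The value is the log2 difference in the Hoxb1-GFP line minus that in the Mef2c-Cre line. Its median was 0.06 over the 51 regions, beside 0.01 for all regions. The median standard error was 0.42 over the 51 and 0.40 for all regions.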

How the data were processed

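ATAC-seq of 7 libraries (2 GFP+, 2 GFP-, 2 Tomato+ and 1 Tomato-) was analysed from the peak lists of each library. Per the labels and the methods, the authors mapped read pairs to GRCm38 using SNAP, took out duplicates, secondary or improper pairs and blacklisted reads with SAMtools, and called peaks on each library alone, without control, in MACS2 (2.1.1; 2.1.0 in the header of Tomato+ replicate 6) at p at most 0.01, with reads shifted by 37 bp and extended to 73 bp. The deposited columns hold pileup coverage (signal), fold enrichment over the local background (a ratio), and −log10 p-value and −log10 q-value. The tag totals were estimated here from the lowest background value. Replicate numbers are adapter numbers and pair no samples.

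Peaks with several summits were kept once, by the smallest p. Peaks of all 7 lists were joined where they shared at least 1 bp, and placed on the RefSeq annotation of GRCm38.p6 (same build as the lists). A peak was open at q at most 0.01. Levels were tested with limma 3.58.1 in R 4.3.3 (quantile-normalized log2 fold enrichment, 4 group means, empirical Bayes with trend, Benjamini-Hochberg over all regions) and checked on simulated data. Percent positions count from the top of each library's list. Genes and regions were named by a rule: all 8 promoters, for each gene the 2 distal regions open in most libraries (ties broken by median fold enrichment), every region seen in one of GFP+ and Tomato+ and not in the other, and the 3 regions with the smallest p; others are said to have been picked after their values were seen. The members, lists and motifs were chosen with earlier results of these data known, and the CTCF consensus after these values were seen. Alternatives were stricter, looser and fixed-size peak sets, other windows and joins, other scales for the fit, and leaving out each library. The promoter values of one posterior marker are not reported here.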

Additional observations from a re-analysis of the deposited data

How the results depend on the processing

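The counts of promoters kept within 1.5 times under all alternatives, from 7 to 8 for the cofactor genes when a library was left out, with one exception: among the 30000 peaks with the smallest p, 4 in place of 7 other TALE promoters were open in all 7 libraries. The 98 distal regions open in at least 2 libraries became 45 at q at most 0.0001, 363 with all deposited peaks and 42 among the 30000 peaks with the smallest p. The 30 open in all 7 libraries became 18 at q at most 0.0001, 16 among those 30000 peaks, 14 with promoters of other genes removed and 18 with a flank of 25 kb. By construction fewer or more peaks or bases entered in these settings.

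The 1 region seen in GFP+ and not in Tomato+ became 4 with called and absent both at q at most 0.01, 0 with the call at q at most 0.0001, and 2 with regions joined at 50% of the shorter peak. It ranged from 1 to 20 when a library was left out, 20 without either GFP+ library and 3 without Tomato+ replicate 8. The 0 seen in Tomato+ and not in GFP+ became 1 among the 30000 peaks, and ranged from 1 to 24 when a library was left out, 24 without Tomato+ replicate 6, 19 without Tomato+ replicate 8, 2 without GFP+ replicate 3 and 1 without GFP+ replicate 4. With 1 library a side a call needs no second library. No genome-wide share is given for these alternatives, so their counts have no background beside them. The 4 promoters closer to the top in GFP+ ranged from 4 to 5. The 0 closer to the top in Tomato+ became 1 when ranked by −log10 p, and ranged from 1 to 3 when a library was left out (3 without Tomato+ replicate 6).

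The limma counts in the windows were 0 under every alternative run. The smallest adjusted p among regions of the windows for GFP+ against Tomato+ ranged from 0.0846 without GFP+ replicate 4 to 0.609 without GFP+ replicate 3, and was 0.274 as reported. Where leaving out a library left 1 in a group, that library was taken to vary like the others. No paired analysis was possible because the groups share no replicate number. Read counts per region are not in the lists used here, and a missing peak says only that none passed the caller's limit at that library's depth.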
